A study of Mus musculus with 16 samples.

Results

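The 39 mouse genes described here encode secreted coagulation and complement factors of the liver, 20 of coagulation and fibrinolysis and 19 of complement. They were chosen by name and matched by symbol, and make up 39 of the 24411 gene symbols in each count table. The choice was made with earlier results of these data known. Counts set beside the share of all tested genes are therefore description and not a test. All 39 had enough counts to be among the 12901 genes tested. Liver tissue was profiled by sequencing of polyadenylated RNA in 4 groups of 4 libraries. EtOH+MBV mice received an ethanol diet after the NIAAA scheme, which joins chronic feeding with a binge, and were treated with matrix-bound nanovesicles (MBV), vesicles embedded in extracellular matrix. EtOH mice received the ethanol diet and vehicle, PF+MBV mice were pair-fed without ethanol and treated with MBV, and PF mice were pair-fed and given vehicle. The labels give no strain, sex, age or MBV dose and leave unsaid whether each library is a mouse of its own; the p-values then cover just the variation among these samples, which may be technical.

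Coagulation is a chain of proteases, most of them made by hepatocytes as inactive precursors, which ends when thrombin turns fibrinogen into fibrin; plasmin made from plasminogen dissolves the clot. Complement is started by C1q (classical pathway), by mannose-binding lectins (lectin pathway) or by the alternative pathway. All of these meet at C3 and lead to C5, C6, C7, C8 and C9, which assemble into the pore called the membrane attack complex. Hepatocytes make most of these proteins, while C1q comes mainly from macrophages. Fibrinogen and C3 are also acute phase proteins: in liver, fibrinogen synthesis is driven by interleukin-6, and that of C3 also by interleukin-1.

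Gene counts per library were 15271344 to 20493181 over the 16 libraries, and 15021 to 15856 genes had at least 1 count. The 12 hepatocyte markers summed to 119410 to 128190 CPM (TMM-scaled counts relative to the total gene counts of the library) in EtOH+MBV, 88584 to 140860 CPM in EtOH, 99576 to 115360 CPM in PF+MBV and 100540 to 135790 CPM in PF, so defining markers of the labelled tissue were present, although Ass1 stayed at or below 0.248 CPM in every library. The red cell markers Hba-a1, Hba-a2, Hbb-bs and Hbb-bt were listed at 0 in every library. A pair of libraries stood apart. On the second principal component EtOH 1 lay at -74.2, against -17.8 to 11.6 for the other EtOH libraries, and its mean hepatocyte marker level (log2 CPM relative to PF) was -0.96, against -0.28 to 0.06 in those. On the first component EtOH+MBV 1 lay at -0.25, against 41.2 to 49.6 for the other EtOH+MBV libraries and -48.4 to -32.9 for the PF libraries. By TMM-scaled CPM, EtOH 1 was the lowest EtOH library for 27 of the 39 genes, 15 of coagulation and 12 of complement. Results that rest on either library are therefore also given without both. The TMM factor was highest in EtOH 1 (1.27) and lowest in EtOH 3 (0.864) of all libraries. Orders and overlaps of libraries in CPM depend in part on this scaling. In bulk liver RNA, fewer cells of a type and less RNA per cell cannot be told apart.

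Together the 39 genes took 4.48% to 7.42% of gene counts in EtOH+MBV libraries, 3.85% to 6.22% in EtOH, 3.47% to 3.73% in PF+MBV and 3.78% to 3.97% in PF. Levels per length were CPM per kilobase of the union of all annotated exons. By these the order in PF livers was led by Fgg (1585 ± 269, SD, n = 4), Fga (1425 ± 217), C3 (1301 ± 142) and Fgb (1094 ± 144), whose ranges over the PF libraries overlapped from each gene to the next. Plasminogen (Plg, 671 ± 15.4) and kininogen (Kng1, 631 ± 38.7) followed and overlapped with each other. The terminal complement genes lay in the middle of the order, from C8g (223 ± 19.8) to C6 (97.8 ± 24.3). The lowest were Pros1 (22.1 ± 3.92), which encodes the protein C cofactor protein S, C1qc (15.1 ± 3.20) and Masp1 (8.19 ± 2.00). The exon union was longest for Masp1 (9833 bases) and Serpinc1 (8546 bases). A gene whose liver transcripts are shorter than its union is placed too low in this order. Counting ignored strand. Fgg, F5, Plg, Serpinc1, Serpind1, Masp1, Masp2, C2, Hc, C8a and C8g each overlap, by gene span, a gene on the opposite strand. Reads in exons shared by 2 counted genes are ambiguous and are left out of both. Where the overlapping gene is not counted, as for Fgg, Hc and C8a, its reads may be in the value given. Overlap of exons was not examined. C4b, Kng1 and C1ra have near-identical copies (C4a, Kng2 and C1rb) and their values are less certain.

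**Figure D1:**
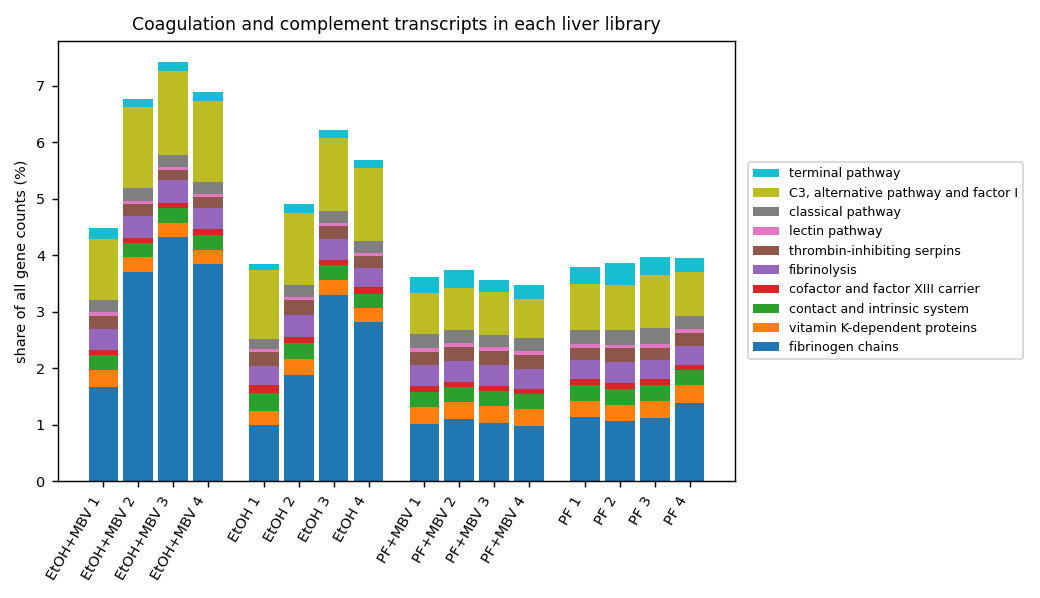
Share of all gene counts (%) taken by the 39 genes in each library, stacked by role, with groups from left EtOH+MBV, EtOH, PF+MBV and PF. Fibrinogen averaged 3.38% in EtOH+MBV, 2.25% in EtOH, 1.03% in PF+MBV and 1.17% in PF libraries, and the terminal pathway averaged 0.167%, 0.137%, 0.261% and 0.317% in that order of groups.

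The first comparison asks what the ethanol diet did to these genes without MBV. In EtOH livers the 3 fibrinogen chains and C3 were higher, and all 6 terminal complement genes among the 39 were lower. Of the 39 genes, 21 passed an adjusted p of 0.05 (edgeR quasi-likelihood test, Benjamini-Hochberg over all tested genes), 6 of them higher and 15 lower, beside 39.8% of all tested genes, 20.4% higher and 19.5% lower. Of the 20 coagulation genes 4 were higher and 7 lower, with a median log2 fold change of -0.04. Of the 19 complement genes 2 were higher and 8 lower, with a median of -0.34, and over all tested genes the median was 0.01. Without EtOH 1 and EtOH+MBV 1 the counts were 5 higher and 6 lower in coagulation, and 2 higher and 8 lower in complement, beside 41.8% of all tested genes called. With EtOH 1 alone left out, the medians were 0.02 in coagulation and -0.19 in complement, beside -0.01 over all tested genes. EtOH and PF libraries did not overlap for 17 of the 39 genes, beside 32.3% of all tested genes. Folds below are on the log2 scale with standard errors from the fit of all 16 libraries.

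**Figure D2:**
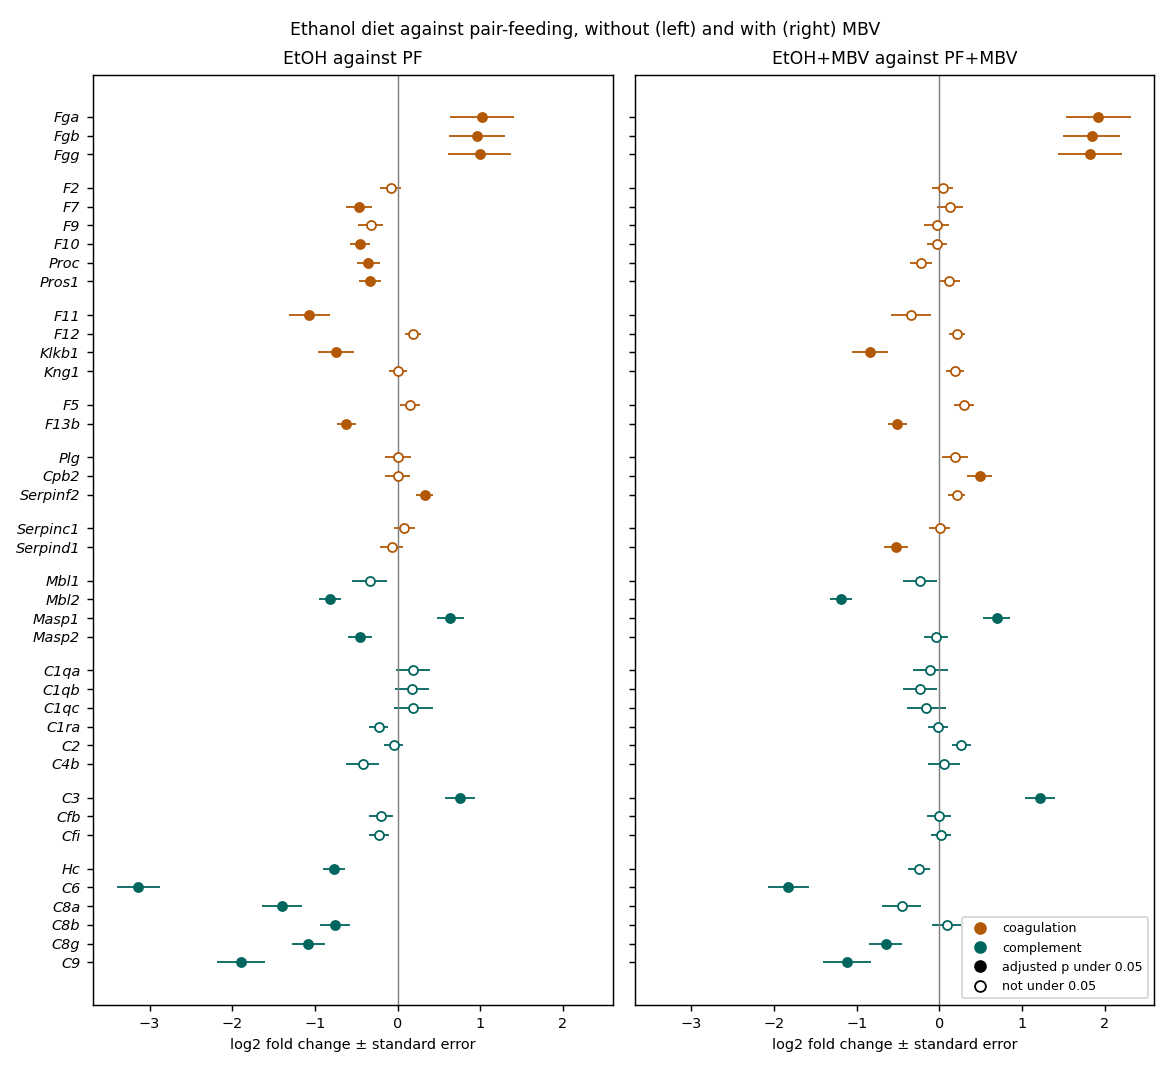
Log2 fold change ± standard error (x axis) of the 39 genes, top to bottom by role, for EtOH against PF (left) and EtOH+MBV against PF+MBV (right). Filled points passed an adjusted p of 0.05, and colours mark coagulation and complement; fibrinogen (Fga, Fgb, Fgg) and C3 lie right of 0 in both panels, C6 and C9 left of 0.

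Fibrinogen is a hexamer of 3 chains encoded side by side on chromosome 3 (GRCm38) by Fgg (chr3:83007724-83015049, plus strand), Fga (chr3:83026076-83033627, plus strand) and Fgb (chr3:83040141-83049863, minus strand). The RefSeq promoter windows (build GRCm38.p6, 250 bases before to 50 after the start) are shown because the 3 chains moved together. Capitals mark GTTAAT, part of the HNF1 site, TTGCNNAA, a C/EBP pattern, and TTCNNNGAA, a STAT3 pattern, searched on both strands, with no overlap among the matches printed. The windows are chr3:83025903-83026202 (plus strand), chr3:83049814-83050113 (minus strand) and chr3:83007474-83007773 (plus strand).
Fga: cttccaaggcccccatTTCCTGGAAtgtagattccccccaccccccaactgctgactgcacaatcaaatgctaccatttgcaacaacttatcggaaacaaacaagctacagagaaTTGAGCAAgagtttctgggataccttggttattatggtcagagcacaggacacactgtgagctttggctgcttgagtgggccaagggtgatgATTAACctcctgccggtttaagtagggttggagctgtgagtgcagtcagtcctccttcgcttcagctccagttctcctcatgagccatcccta
Fgb: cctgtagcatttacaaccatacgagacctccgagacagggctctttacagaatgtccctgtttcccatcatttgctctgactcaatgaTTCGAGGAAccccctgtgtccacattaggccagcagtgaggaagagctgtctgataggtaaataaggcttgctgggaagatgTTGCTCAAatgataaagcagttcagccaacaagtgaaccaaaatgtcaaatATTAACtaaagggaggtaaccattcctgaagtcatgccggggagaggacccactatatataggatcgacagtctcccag
Fgg: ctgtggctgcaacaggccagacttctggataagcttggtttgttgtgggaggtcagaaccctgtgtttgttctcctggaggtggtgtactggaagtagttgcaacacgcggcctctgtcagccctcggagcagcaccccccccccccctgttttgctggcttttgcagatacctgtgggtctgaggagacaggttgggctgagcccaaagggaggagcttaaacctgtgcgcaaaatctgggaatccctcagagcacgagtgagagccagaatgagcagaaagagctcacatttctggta
The windows of Fga and Fgb each held all 3 patterns and that of Fgg held none of them. GTTAAT was in 7.1% of 32544 promoter windows and in 8 of the 30 windows of these genes (26.7%), TTGCNNAA in 10.8% and 10 (33.3%), and TTCNNNGAA in 8.3% and 7 (23.3%). The HNF4 core CAAAG was in 54.0% of all windows and 21 of the 30, and the nuclear receptor pattern AGGTCA in 16.2% and 13; these 2 are not capitalised. The windows of C8g were counted as 1. Proc, Kng1, Plg, Masp1, C1qa, C2, C4b, Cfb and Cfi had no window in the table. A match describes letters and not binding.

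Fga, the alpha chain, had 2589, 6932, 14305 and 10895 CPM in the 4 EtOH libraries, against 4173, 3592, 4228 and 5167 CPM in the PF libraries. In 3 of the 4 EtOH libraries it lay above every PF library, and in EtOH 1 below all of them. Its log2 fold change was 1.02 ± 0.38 (adjusted p = 0.0449). Fgb, the beta chain, had 3085, 6726, 12772 and 9894 CPM in EtOH, against 3970, 3661, 4098 and 4941 CPM in PF, a log2 fold change of 0.96 ± 0.34 (adjusted p = 0.032). Fgg, the gamma chain, had 2131, 5051, 11024 and 8139 CPM in EtOH, against 3214, 2840, 3088 and 4131 CPM in PF, a log2 fold change of 0.99 ± 0.38 (adjusted p = 0.0476). The 3 chains kept the same order of libraries in EtOH, lowest in EtOH 1 and highest in EtOH 3. Per length, the ratio of Fga to Fgb was 1.06 to 1.42 in EtOH and 1.24 to 1.33 in PF. Without EtOH 1 and EtOH+MBV 1 the log2 fold changes were 1.33 ± 0.18, 1.24 ± 0.17 and 1.29 ± 0.19 for Fga, Fgb and Fgg. The calls lie close to the limit: of 24 alternative settings, 15 lost the call of Fga and 15 that of Fgg, with adjusted p up to 0.177 and 0.196, and 6 lost that of Fgb, with adjusted p up to 0.128. Without EtOH 3 the log2 fold changes were at their lowest, 0.66, 0.65 and 0.61, and none passed.

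The 6 vitamin K-dependent proteins lay lower in EtOH, with log2 fold changes of -0.46 to -0.09, and 4 passed the test. F7, the protease that starts clotting with tissue factor, had 48.1, 90.1, 95.3 and 71.7 CPM in EtOH, against 111, 96.1, 110 and 104 CPM in PF (log2 fold change -0.46 ± 0.16, adjusted p = 0.0266). F10, whose product activates prothrombin, had 213, 287, 329 and 257 CPM in EtOH, against 381, 335, 371 and 403 CPM in PF (-0.46 ± 0.12, adjusted p = 0.00747). For both genes every EtOH library lay below every PF library. The anticoagulant protein C gene Proc had 229, 383, 382 and 322 CPM in EtOH, against 398, 444, 409 and 432 CPM in PF, again without overlap (-0.35 ± 0.14, adjusted p = 0.0499). Pros1 had 72.9, 70.1, 73.7 and 69.4 CPM in EtOH, against 90.3, 68.2, 105 and 98.2 CPM in PF, with overlap (-0.34 ± 0.13, adjusted p = 0.0487). The calls of Proc and Pros1 were lost under 19 and 18 of 24 alternatives, with adjusted p up to 0.137 and 0.153, and that of F7 under 4. Prothrombin (F2, -0.09 ± 0.13) and F9, the factor missing in haemophilia B (-0.33 ± 0.15), did not pass.

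In the contact and intrinsic system, F11 and Klkb1 fell. F11, factor XI, had 23.2, 43.2, 60.7 and 64.6 CPM in EtOH, against 99.4, 123, 102 and 76.4 CPM in PF (log2 fold change -1.07 ± 0.25, adjusted p = 0.00286). Klkb1, plasma prekallikrein, encoded next to F11 on chromosome 8, had 80.1, 158, 118 and 109 CPM in EtOH, against 197, 227, 194 and 161 CPM in PF (-0.75 ± 0.22, adjusted p = 0.0138). In TMM-scaled CPM neither gene had an EtOH library as high as any PF library. F12, factor XII, at 0.19 ± 0.10, and Kng1, at 0.01 ± 0.11, did not pass; without EtOH 1 and EtOH+MBV 1, F12 passed at 0.27 ± 0.08. F13b, the carrier subunit of the clot-stabilising factor XIII, had 117, 159, 176 and 149 CPM in EtOH, against 239, 217, 237 and 231 CPM in PF (-0.62 ± 0.11, adjusted p = 0.000489), also without overlap. The cofactor gene F5 was at 0.15 ± 0.12 and did not pass. The calls of F10, F11, Klkb1 and F13b held under all 24 alternatives.

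Among genes of clot breakdown and inhibition, only Serpinf2 passed, out of 5. Serpinf2, which encodes the plasmin inhibitor alpha-2-antiplasmin, had 842, 969, 968 and 816 CPM in EtOH, against 665, 814, 683 and 706 CPM in PF (log2 fold change 0.33 ± 0.10, adjusted p = 0.0207). In TMM-scaled CPM its lowest EtOH library lay just above its highest PF library, and 5 of 24 alternatives lost its call, with adjusted p up to 0.12. As a share of gene counts the groups overlapped, with 12659 of 15912023 counts in EtOH 4 and 13006 of 15271344 in PF 2. Plg averaged 2493 ± 618 CPM in EtOH and 2488 ± 57.3 CPM in PF (SD, n = 4 each). Cpb2, which encodes an inhibitor of fibrinolysis activated by thrombin, averaged 279 ± 67.1 CPM in EtOH and 279 ± 9.36 CPM in PF. Antithrombin (Serpinc1, 0.08 ± 0.13) and heparin cofactor II (Serpind1, -0.07 ± 0.14) did not pass either. In TMM-scaled CPM the spread of Plg and Cpb2 was wider in EtOH than in PF, with EtOH 1 lowest for both. As a share of gene counts EtOH 1 was not lowest for Cpb2, with 4400 of 16302158 counts, against 4196 of 17074882 in EtOH 2.

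In the lectin pathway, 1 gene rose and 2 fell. Mbl2, a lectin that binds sugars on microbes, had 169, 148, 158 and 125 CPM in EtOH, against 263, 241, 249 and 303 CPM in PF (log2 fold change -0.82 ± 0.13, adjusted p = 0.000211). Masp2, the protease that cleaves C4 and C2, had 95.3, 158, 153 and 149 CPM in EtOH, against 204, 184, 213 and 159 CPM in PF (-0.45 ± 0.15, adjusted p = 0.0205). Masp1, the protease that activates Masp2, moved the other way, with 120, 124, 115 and 141 CPM in EtOH, against 89.8, 92.4, 88.9 and 51.2 CPM in PF (0.63 ± 0.16, adjusted p = 0.00608). None of the 3 overlapped between EtOH and PF in TMM-scaled CPM. The Masp1 value of 51.2 CPM in PF 4 stood apart, and without PF 4 the call held. The other lectin, Mbl1, had 50.2 to 148 CPM in EtOH, lowest in EtOH 1, and 116 to 146 CPM in PF, and did not pass (-0.34 ± 0.21). Calls of Mbl2 and Masp1 held under all 24 alternatives, and that of Masp2 was lost under 3.

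None of the 6 classical pathway genes passed. C1qa, C1qb and C1qc, the chains of C1q, encoded together on chromosome 4, had 57.4, 64.8 and 55.8 CPM in EtOH 1, against 22.5 to 34.6 CPM over the remaining EtOH libraries and 21.2 to 39.2 CPM in PF. EtOH 1 was the library with the most of each chain. The 10 Kupffer cell markers, none of which was at 0 in any group, summed to 283 to 622 CPM in EtOH and 471 to 577 CPM in PF. Their mean log2 level was 0.53 in EtOH 1 and -0.83 to -0.25 in EtOH 2 to 4. That of the 7 tested monocyte and recruited macrophage markers was 1.10 in EtOH 1 and -0.90 to -0.13 in EtOH 2 to 4. The part of either list in the C1q values was not tested. C1ra (-0.23 ± 0.12), the protease bound to C1q, and C2 (-0.05 ± 0.12) and C4b (-0.42 ± 0.20), which form the C3 convertase, did not pass. Leaving the 3 C1q genes out, the median of the 16 other complement genes was -0.44.

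C3 rose while the genes around it did not pass. C3, the central complement protein (chr17:57203970-57228136, minus strand), had 8707, 11184, 13246 and 11963 CPM in EtOH, against 6664, 6050, 7723 and 6335 CPM in PF, with no overlap (log2 fold change 0.75 ± 0.18, adjusted p = 0.00329). This call held under all 24 alternatives, at 0.66 to 0.87. Cfb, the protease component of the alternative pathway convertase, was at -0.21 ± 0.14, and Cfi, a protease that inactivates cleaved C3, at -0.23 ± 0.12.

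Every terminal pathway gene fell, which is 6 of 6 beside 19.5% of all tested genes, with a median log2 fold change of -1.24. C6 (chr15:4727175-4814967, plus strand) fell most. It had 40.4, 47.0, 34.2 and 36.5 CPM in EtOH, against 308, 452, 377 and 253 CPM in PF, a level 8.80-fold lower (log2 fold change -3.14 ± 0.26, adjusted p = 8.56e-07). C9, the pore-forming unit, had 47.3, 152, 177 and 109 CPM in EtOH, against 397, 551, 481 and 380 CPM in PF (-1.90 ± 0.29, adjusted p = 0.000131). C6 and C9 both lie on chromosome 15, and neither showed overlap between the groups. C8a had 135, 222, 353 and 280 CPM in EtOH, against 580, 815, 726 and 493 CPM in PF (-1.40 ± 0.24, adjusted p = 0.000351). C8g had 85.1, 183, 201 and 160 CPM in EtOH, against 320, 354, 298 and 361 CPM in PF (-1.08 ± 0.20, adjusted p = 0.000689). C8b had 117, 215, 227 and 174 CPM in EtOH, against 268, 384, 322 and 264 CPM in PF (-0.76 ± 0.18, adjusted p = 0.00352). These 3 genes encode the chains of C8, and the EtOH libraries of each lay below all PF libraries, with EtOH 1 lowest. Hc, which encodes C5, had 489, 650, 742 and 634 CPM in EtOH, against 1051, 1141, 1183 and 906 CPM in PF (-0.77 ± 0.13, adjusted p = 0.000342), also without overlap. All 6 calls held under all 24 alternatives, including without EtOH 1 and EtOH+MBV 1, where C6 was at -3.14 ± 0.21 and C9 at -1.62 ± 0.17.

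The promoter windows of C6 (chr15:4726960-4727259, plus strand) and C8a (chr4:104876349-104876648, minus strand) are given as those of a large and a moderate fall, with the same capitals as above.
C6: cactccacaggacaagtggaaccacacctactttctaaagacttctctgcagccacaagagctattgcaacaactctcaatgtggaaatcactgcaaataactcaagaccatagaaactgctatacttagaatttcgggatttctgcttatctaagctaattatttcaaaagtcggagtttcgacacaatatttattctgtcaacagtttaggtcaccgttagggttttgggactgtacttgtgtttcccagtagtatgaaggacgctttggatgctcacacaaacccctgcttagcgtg
C8a: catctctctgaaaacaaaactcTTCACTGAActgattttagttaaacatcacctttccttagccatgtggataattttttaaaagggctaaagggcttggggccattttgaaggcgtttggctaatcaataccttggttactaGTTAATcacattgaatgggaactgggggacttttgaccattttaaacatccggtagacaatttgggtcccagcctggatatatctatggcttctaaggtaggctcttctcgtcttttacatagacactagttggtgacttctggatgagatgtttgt
The C6 window held none of the 3 capitalised patterns and that of C8a held GTTAAT and TTCNNNGAA. Among the 6 terminal genes GTTAAT was found in 3, TTGCNNAA in 1 and TTCNNNGAA in 1.

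**Figure D3:**
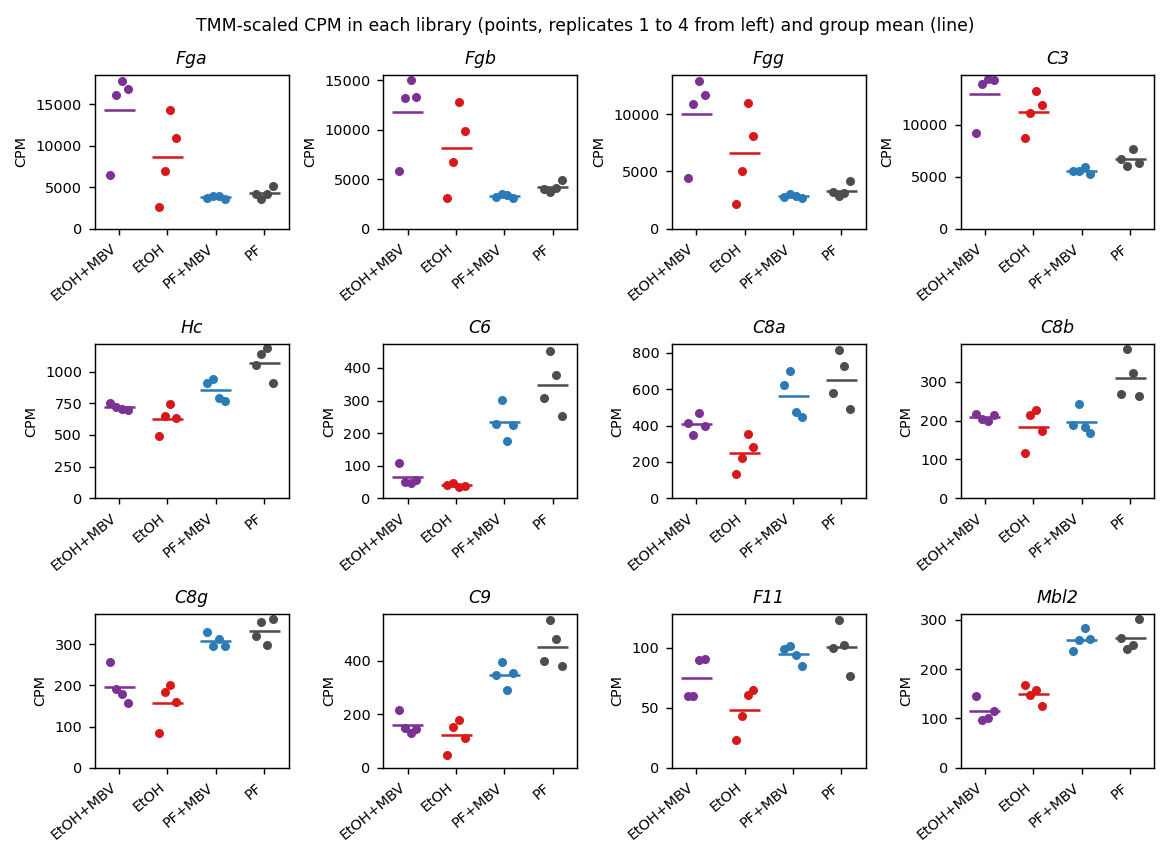
TMM-scaled CPM (y axes from 0) of 12 genes in each library, with points for replicates 1 to 4 and a line at the group mean; groups from left are EtOH+MBV, EtOH, PF+MBV and PF. C6 had 34.2 to 47.0 CPM in EtOH against 253 to 452 CPM in PF, and Fga in EtOH ran from 2589 to 14305 CPM, on both sides of the PF values.

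Within a library, the difference between the arms does not depend on how libraries are scaled. The mean log2 CPM of the 20 coagulation genes minus that of the 19 complement genes, set to 0 on average in PF, was 0.31 to 0.65 in EtOH+MBV, 0.27 to 0.62 in EtOH, 0.02 to 0.20 in PF+MBV and -0.16 to 0.15 in PF. Every library of the ethanol diet therefore lay above every pair-fed library, EtOH 1 and EtOH+MBV 1 included. Without the C1q genes the ranges were 0.32 to 0.68 in EtOH+MBV, 0.50 to 0.64 in EtOH, 0.03 to 0.21 in PF+MBV and -0.15 to 0.18 in PF. The coagulation mean itself was -0.56 to 0.23 in EtOH and -0.05 to 0.03 in PF, and overlapped. The complement mean was -0.83 to -0.39 in EtOH and -0.12 to 0.11 in PF, and did not. By role, the EtOH mean relative to PF was 0.78 for fibrinogen and -1.55 for the terminal pathway. Other roles averaged -0.43 to 0.09 in coagulation and -0.26 to 0.09 in complement. In EtOH+MBV, fibrinogen was at 1.52 and the terminal pathway at -1.09. Other roles there averaged -0.25 to 0.29 in coagulation and -0.22 to 0.22 in complement. Outside fibrinogen and the terminal pathway, the role means of the arms thus overlapped.

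**Figure D4:**
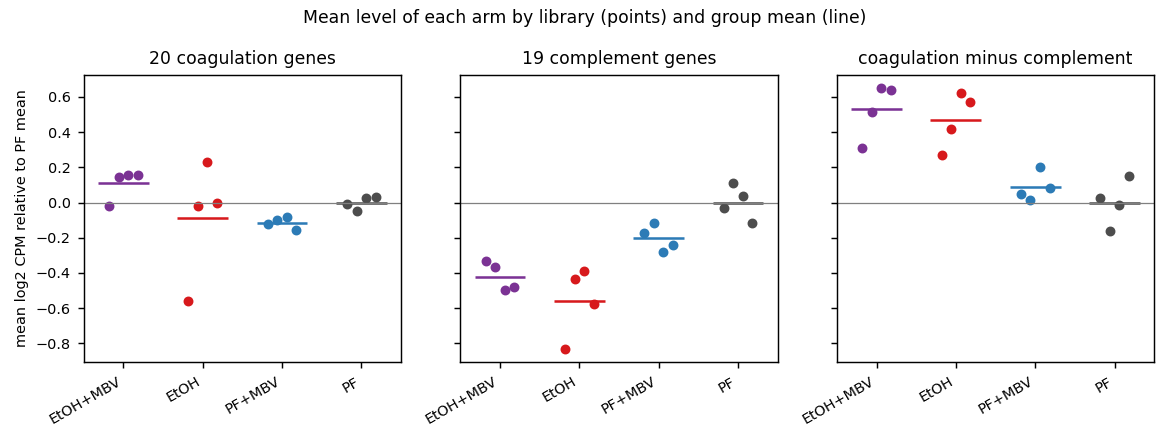
Mean log2 CPM of the coagulation genes, of the complement genes and their difference, relative to the PF mean (y axis), with a point per library and a line at the group mean; groups from left are EtOH+MBV, EtOH, PF+MBV and PF. In the right panel all 8 ethanol-diet libraries lie at 0.27 or higher and all 8 pair-fed libraries at 0.20 or lower.

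Genes that work with these factors moved in both directions. So did all tested genes, of which 20.4% were higher and 19.5% lower in EtOH against PF. Of 19 tested other coagulation and fibrinolysis genes, 8 rose and 5 fell in EtOH against PF. Those that rose included the endothelial thrombin receptor Thbd (log2 fold change 3.94 ± 0.25), the urokinase receptor Plaur (3.24 ± 0.40) and thrombospondin Thbs1 (3.82 ± 0.48). Of 20 other complement genes 1 rose and 10 fell, among them the collectins Colec10 (-1.55 ± 0.16) and Colec11 (-0.53 ± 0.12) and Cfd, factor D, which is mainly an adipocyte product (0 to 0.0967 CPM in EtOH and 5.77 to 19.3 CPM in PF). Of 11 complement receptors and membrane regulators 2 rose, Cd93 (2.00 ± 0.18) and Itgam (1.00 ± 0.33), and 3 fell, among them C5ar2 (-1.42 ± 0.32) and Cd59a (-0.44 ± 0.15), a membrane inhibitor of the attack complex. Of the 6 genes of the vitamin K cycle and factor secretion, Vkorc1l1 fell (-0.38 ± 0.09) and Furin (0.34 ± 0.11) and Mcfd2 (0.29 ± 0.11) rose.

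The counts of this paragraph stand beside 20.4% of all tested genes higher and 19.5% lower in EtOH against PF. Of 14 genes listed as positive acute phase proteins 6 rose, among them Lcn2 (5.25 ± 0.75), Lbp (1.25 ± 0.24) and Orm2 (2.61 ± 0.62), and 1 fell. The gene that fell, Saa4 (-1.59 ± 0.42), encodes a serum amyloid A that is made constitutively. The median of the 14 was 1.00, beside 0.99 for the fibrinogen chains. Of 11 negative acute phase and carrier genes 3 rose (Ahsg, Itih2 and Itih1) and none fell. Of 16 hepatocyte transcription factors 3 rose and 5 fell. Cebpa (-1.52 ± 0.18), Onecut1 (-1.91 ± 0.30), Foxa2 (-0.95 ± 0.22) and Foxa1 (-1.04 ± 0.24) were the 4 with the smallest p. Cebpa averaged 151 ± 37.8 CPM in EtOH and 431 ± 22.3 CPM in PF (SD, n = 4 each). Of 11 tested hepatocyte markers 1 rose and 2 fell, of 10 liver endothelial markers 2 rose and 7 fell, and of 10 stellate cell markers 5 rose and 2 fell. Their part in the changes of the 39 genes was not tested.

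The same diets were compared in mice that had MBV. In EtOH+MBV livers, against PF+MBV, fibrinogen and C3 were again higher and 3 of the terminal genes lower, and 13 of the 39 genes passed, 6 higher and 7 lower, beside 35.9% of all tested genes, 19.2% higher and 16.7% lower. Coagulation had 4 higher and 3 lower, with a median log2 fold change of 0.12, and complement 2 higher and 4 lower, with a median of -0.11; the median of all genes was -0.01. With libraries scaled by total gene counts alone, the median of all genes moved to -0.15 and the coagulation median to -0.02. Libraries did not overlap for 17 of the 39 genes, beside 39% of all tested genes.

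Fga had 6430, 16161, 17836 and 16820 CPM in EtOH+MBV, against 3657, 3951, 3899 and 3619 CPM in PF+MBV (log2 fold change 1.92 ± 0.39, adjusted p = 0.00155). Fgb had 5824, 13186, 14991 and 13317 CPM in EtOH+MBV, against 3227, 3495, 3447 and 3047 CPM in PF+MBV (1.84 ± 0.34, adjusted p = 0.000838). Fgg had 4432, 10901, 12931 and 11716 CPM in EtOH+MBV, against 2770, 3019, 2828 and 2674 CPM in PF+MBV (1.82 ± 0.39, adjusted p = 0.00202). Every EtOH+MBV library exceeded every PF+MBV library, and EtOH+MBV 1 was the lowest of its group for all 3 chains. C3 had 9254, 13918, 14396 and 14303 CPM in EtOH+MBV, against 5548, 5595, 5944 and 5234 CPM in PF+MBV (1.22 ± 0.18, adjusted p = 0.000139). Masp1 had 101, 137, 151 and 155 CPM in EtOH+MBV, against 87.6, 84.1, 82.0 and 83.3 CPM in PF+MBV (0.69 ± 0.16, adjusted p = 0.00413). Cpb2 also rose (0.49 ± 0.15, adjusted p = 0.0219), a call lost under 4 of 24 alternatives.

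C6 had 108, 51.1, 46.5 and 56.7 CPM in EtOH+MBV, against 228, 301, 177 and 225 CPM in PF+MBV (-1.83 ± 0.25, adjusted p = 8.3e-05). C9 had 216, 149, 130 and 144 CPM in EtOH+MBV, against 348, 397, 289 and 354 CPM in PF+MBV (-1.12 ± 0.29, adjusted p = 0.00676). C8g had 257, 192, 178 and 158 CPM in EtOH+MBV, against 330, 295, 313 and 296 CPM in PF+MBV (-0.65 ± 0.20, adjusted p = 0.0198). For these 3 terminal genes the highest EtOH+MBV library was EtOH+MBV 1, still below every PF+MBV library. Hc (-0.25 ± 0.13), C8a (-0.46 ± 0.24) and C8b (0.09 ± 0.18) did not pass. Hc and C8a were called lower with libraries scaled by total counts (adjusted p = 0.0146 and 0.0333, edgeR) and by limma's voom (adjusted p = 0.0162 and 0.0289), which takes the terminal count to 5 of 6. These settings called 32.1% (total counts) and 54.9% (voom) of all tested genes. Without EtOH+MBV 2, 3 or 4 in turn, the terminal count was 2. The call of C8g was lost in each of these runs (edgeR adjusted p up to 0.0698). Mbl2 had 146, 96.0, 101 and 114 CPM in EtOH+MBV, against 238, 259, 283 and 261 CPM in PF+MBV (-1.19 ± 0.13, adjusted p = 1.98e-05). Klkb1 had 179, 84.9, 96.9 and 96.0 CPM in EtOH+MBV, against 225, 211, 209 and 171 CPM in PF+MBV (-0.84 ± 0.22, adjusted p = 0.00822), and overlapped through EtOH+MBV 1. F13b (-0.51 ± 0.11) and Serpind1 (-0.52 ± 0.14) fell too. Of the 39 genes, 5 were called higher and 6 lower by the ethanol diet both with and without MBV (28.2% together, beside 19.9% of all tested genes), and 16 were called in neither comparison (41%, beside 44.6%). Among the 10 called only without MBV were F7, F10, F11 and Hc; the difference between the diets' effects was tested only by the interaction given below. Without EtOH 1 and EtOH+MBV 1, 12 coagulation genes (8 higher, 4 lower) and 6 complement genes (2 higher, 4 lower) passed, which is 46.2% of the 39, beside 48.2% of all tested genes.

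On the ethanol diet, none of the 39 genes passed an adjusted p of 0.05 for MBV, beside 2.69% of all tested genes, 1.24% higher and 1.45% lower. At an unadjusted p of 0.05, 7 of the 39 passed (17.9%), beside 21.1% of all tested genes. Limma's voom with sample quality weights called none, and DESeq2 called 2, Serpind1 (-0.42) and C8a (0.72), beside 7.01% of all tested genes. No gene had EtOH+MBV and EtOH libraries that did not overlap, beside 7.58% of all tested genes. The largest positive log2 fold changes in EtOH+MBV against EtOH were those of C6 (0.73 ± 0.25), C8a (0.72 ± 0.24), Fga (0.72 ± 0.38), F11 (0.64 ± 0.24) and Fgg (0.60 ± 0.38), with adjusted p of 0.102 to 0.383. C8a had 416, 347, 469 and 400 CPM in EtOH+MBV, against 135, 222, 353 and 280 CPM in EtOH, which overlapped by the value of EtOH 3. The lowest were C1qb (-0.50 ± 0.21), C1qc (-0.42 ± 0.24), Serpind1 (-0.42 ± 0.14) and Mbl2 (-0.39 ± 0.13). Left-out libraries decided single calls: Cpb2 and C8a were called without EtOH 3, and Serpind1 and Mbl2 without EtOH 4 and, separately, without EtOH+MBV 1. Without both EtOH 1 and EtOH+MBV 1 no gene was called, C6 was at 0.39 and C8a at 0.51. From the lists, Thbs1 (-2.25 ± 0.43) fell, and Apcs, serum amyloid P (1.04 ± 0.24), and Serpina5 (3.57 ± 0.80, at most 0.87 CPM in any EtOH+MBV library) rose; Apcs and Serpina5 were picked for their values.

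On the pair-fed diet, 1 of the 39 genes passed for MBV, C2, beside 1.78% of all tested genes, 0.752% higher and 1.03% lower. C2, a protease of the classical pathway convertase, had 82.9, 92.4, 80.8 and 83.4 CPM in PF+MBV, against 117, 130, 123 and 107 CPM in PF, with no overlap (log2 fold change -0.49 ± 0.12, adjusted p = 0.0445). The call was lost under 11 of 24 alternatives, with adjusted p up to 0.135. PF+MBV and PF libraries did not overlap for 9 of the 39 genes, beside 15% of all tested genes, and all 9 were lower: Fgb, F7, F10, Kng1, C2, C4b, C3, Cfb and C8b. C8b had 190, 242, 183 and 168 CPM in PF+MBV, against 268, 384, 322 and 264 CPM in PF (-0.66 ± 0.18, adjusted p = 0.071). F7 had 75.0, 76.5, 83.0 and 82.1 CPM in PF+MBV, against 111, 96.1, 110 and 104 CPM in PF (-0.41 ± 0.16, adjusted p = 0.183). Fitted on these 8 libraries alone, 4 genes passed, all lower (F7, F10, C2 and C8b), which is 10.3%, beside 8.97% of all tested genes. Without EtOH 1 and EtOH+MBV 1, 5 genes passed, all lower (F7, Pros1, C2, C6 and C8b), which is 12.8%, beside 7.89% of all tested genes. Voom called 9 of the 39, also all lower (23.1%, beside 19.3% of all tested genes).

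From the lists, in PF+MBV against PF, Thbd rose (1.34 ± 0.24) and Onecut1, a hepatocyte transcription factor, fell (-3.18 ± 0.33), with 4.76 to 6.76 CPM in PF+MBV and 25.4 to 70.6 CPM in PF. S100a10 (0.99 ± 0.15), a plasminogen receptor subunit, and Nr0b2 (1.75 ± 0.41), a nuclear receptor, rose and were likewise picked for their values. None of the other complement or acute phase genes was called.

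The MBV comparisons on the 2 diets share no library and can be set side by side. On the ethanol diet 29 of the 39 log2 fold changes were positive, beside 6569 of the 12901 tested genes. On the pair-fed diet 32 were negative, beside 6374. In 26 genes (66.7%) the sign was positive on ethanol and negative on the pair-fed diet, beside 28.2% of all tested genes; these included all 3 fibrinogen chains, all 6 vitamin K-dependent proteins and all 6 terminal genes. This count depends on EtOH 1 and EtOH+MBV 1 and on scaling. Without these libraries it was 15 of 39 (38.5%), beside 26.6% of all genes, and scaled by total counts alone it was 16 of 39 (41%), beside 16.5%. On the pair-fed diet 32 of 39 were negative also without these libraries (6483 of 12961 tested genes), and 27 by total counts (5055 of 12901). On the ethanol diet the positive count was 16 without these libraries (6229 of 12961) and 20 by total counts (4442 of 12901).

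**Figure D5:**
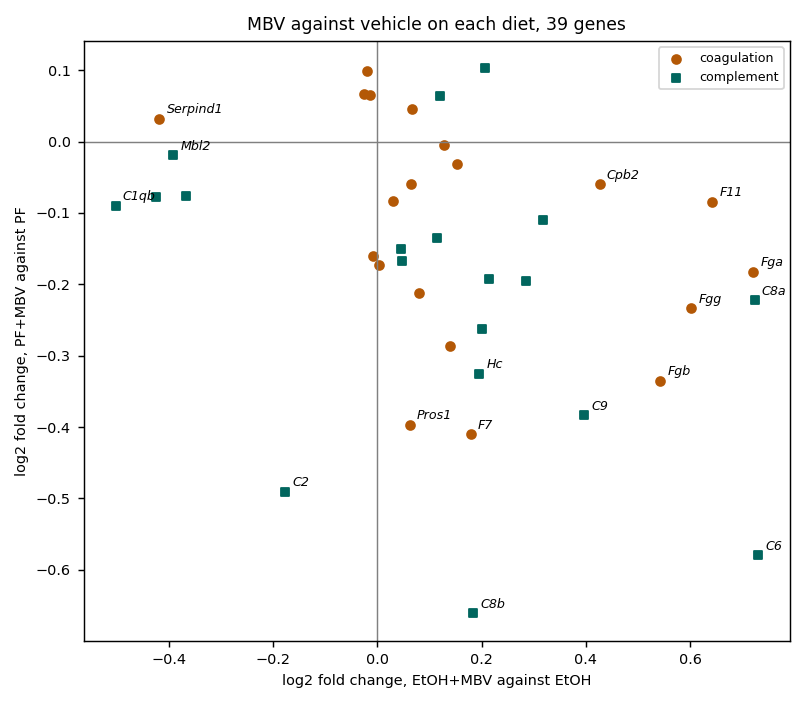
Log2 fold change of the 39 genes in EtOH+MBV against EtOH (x axis) and in PF+MBV against PF (y axis), with circles for coagulation and squares for complement and a selection of genes named. Of the 39 points, 26 lie in the lower right field, C6, C8a and the fibrinogen chains among them.

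The interaction, the MBV effect on the ethanol diet minus that on the pair-fed diet, was called for C6 alone (log2 1.31 ± 0.35, adjusted p = 0.0435), beside 4.1% of all tested genes, 2.02% higher and 2.09% lower. C6 averaged 65.6 ± 28.5 CPM in EtOH+MBV and 39.5 ± 5.62 CPM in EtOH, and 233 ± 51.2 CPM in PF+MBV and 348 ± 86.3 CPM in PF (SD, n = 4 each). The call was lost under 12 of 23 alternatives, with adjusted p up to 0.106; without EtOH 1 and EtOH+MBV 1 the value was 0.97 ± 0.27 and passed. The other terminal genes were between 0.43 (C8g) and 0.95 (C8a) and did not pass, with C8b (0.84 ± 0.25) at an adjusted p of 0.0673. The fibrinogen chains were at 0.84 to 0.90 and did not pass. The median interaction was 0.18 in coagulation and 0.31 in complement, beside 0.00 over all tested genes; scaled by total counts alone these were 0.02, 0.14 and -0.18. From the lists, 5 of 16 hepatocyte transcription factors had a positive interaction, among them Cebpa (0.93 ± 0.24), Foxa2 (1.19 ± 0.30) and Onecut1 (3.29 ± 0.44).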

How the data were processed

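The labels give RNA-STAT60 extraction, poly-T bead selection, random-hexamer cDNA and Illumina sequencing of 16 liver libraries. The submitters' processing notes name Trimmomatic, STAR and mouse build mm10, with no version or annotation. The values are whole-number read counts per gene as the authors deposited them, not normalized, in 3 count columns. Counts that ignore strand were taken, because 1 of the stranded columns held 50.6% to 51.8% of the stranded counts. The 4 entries that are not genes were left out of library sizes: unmapped reads were 11.6% to 19.9%, reads without a feature 9.40% to 10.9% and ambiguous reads 1.35% to 1.69% of a library. Multimapping reads (4.57% to 7.58%) are not in the gene counts, which lowers genes that have near-identical copies.

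The filter was filterByExpr (minimum count 10) and the scaling TMM (factors 0.864 to 1.27). A quasi-likelihood model with 1 mean for each group was fitted over all 16 libraries in edgeR 4.0.16 (R 4.3.3), and each contrast was adjusted by Benjamini-Hochberg over the 12901 genes tested, with a limit of 0.05. CPM are TMM-scaled; log2 CPM used a prior count of 2. Libraries were grouped by their treatment labels. Alternatives were DESeq2 1.42.0 and its size factors, limma 3.58.1 (voom with sample quality weights), total-count scaling, no filter, only the groups compared, a replicate block, each library left out in turn, and EtOH 1 and EtOH+MBV 1 left out together. Medians, list counts, shares and motif matches carry no test.

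Coordinates and exon lengths come from GENCODE M21 (GRCm38), which matched 23376 of 24411 symbols, and promoter windows from RefSeq (GRCm38.p6). The 39 genes and the lists were chosen with earlier results of these data known. Values in every library are given for genes with an adjusted p under 0.05, for up to 14 higher and 14 lower in EtOH against PF and for the 10 largest changes in any other comparison; from each list up to 4 genes with the smallest p in EtOH against PF are named (some of these are not reported here), and a gene named outside this rule is marked as picked for its value.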

Additional observations from a re-analysis of the deposited data

Results flagged for a closer look

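Single libraries that lay far from the other 3 of their group are listed here; 14 of 164 groups of values were set apart in this way, where chance sets apart about 1 in 20 groups. EtOH+MBV 1 was the library in 7 of them. Its Fga level was 6430 CPM (others 16160 to 17840), its C3 level 9254 CPM (13920 to 14400) and its Kng1 level 1908 CPM (2106 to 2143), all lowest of the group. Its Proc level was 416.7 CPM (336.8 to 344.3), its Klkb1 level 178.7 CPM (84.93 to 96.94) and its C6 level 107.9 CPM (46.53 to 56.7), all highest. The mean log2 level of the 20 coagulation genes was -0.0217 in EtOH+MBV 1 and 0.147 to 0.156 in the other EtOH+MBV libraries. EtOH 1 was the library in 2, with the lowest Masp2 level (95.3 CPM, others 148.5 to 157.6) and the highest C1qa level (57.37 CPM, others 26.49 to 29.71).

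The other 5 were spread over single libraries. F2 was at 1661 CPM in EtOH+MBV 3 (others 1751 to 1767) and at 1751 CPM in PF+MBV 3 (others 1659 to 1672). F12 was at 445.4 CPM in PF+MBV 2 (others 462.9 to 463.3). Masp1 was at 51.17 CPM in PF 4 (others 88.89 to 92.41), and C4b was at 2465 CPM in PF 3 (others 1973 to 2032).

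C6 was the gene whose MBV effect differed between the diets by the test of the difference. With MBV the log2 fold change was 0.73 on the ethanol diet (EtOH+MBV against EtOH) and -0.58 on the pair-fed diet (PF+MBV against PF), a difference of 1.309 (adjusted p = 0.0435, edgeR). Without EtOH+MBV 1 the difference was 0.96 and still passed, and over 23 alternatives the adjusted p reached 0.106.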

How the results depend on the processing

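No value changed sign past the limit under any alternative run. Of the 21 calls in EtOH against PF, those of F10, F11, Klkb1, F13b, Mbl2, Masp1, C3 and the 6 terminal genes held under all 24 alternatives. With only the groups compared, 13 of the 39 genes (33.3%) were called in EtOH against PF, beside 30.2% of all tested genes. No fibrinogen chain was among the 13. In EtOH+MBV against EtOH, DESeq2 called 2 of the 39, and genes called over the whole table were 347, against 194 (total counts), 905 (DESeq2), 143 (voom), 205 (replicate block), 180 (without EtOH 1 and EtOH+MBV 1) and 0 with only the groups compared, where 1679 had an unadjusted p under 0.05. In PF+MBV against PF, 1 of the 39 was called, against 0 (total counts), 0 (no filter), 2 (DESeq2), 9 (voom), 4 (only the groups compared) and 5 (without both libraries), and over all genes 230, against 645, 2494, 1119 and 1022 (DESeq2, voom, only the groups compared, without both); the coagulation median was -0.0209 by total counts. In EtOH+MBV against PF+MBV, voom called 21 of the 39 and 7080 of all genes, and by total counts the coagulation median was -0.0219 and the complement median -0.2591. For the interaction, 0 of the 39 were called by total counts, 3 by DESeq2, 7 by voom, 2 with the replicate block and 3 without both libraries, with 350, 1113, 1410 and 887 of all genes (total counts, DESeq2, voom, without both) against 529, and medians of 0.0158 in coagulation and 0.138 in complement by total counts. Total-count scaling took the share of higher among called genes to 30.9% against 46.1% (EtOH+MBV against EtOH), 35.0% against 53.5% (EtOH+MBV against PF+MBV) and 26.6% against 49.2% (interaction), and moved the median of all genes by more than 0.1 in these 3, to -0.11, -0.15 and -0.18. The interaction was not run with only the groups compared. The cause of these differences was not tested.

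Leaving out 1 library at a time gave 13 to 21 called of the 39 in EtOH against PF (lowest without PF 1 or PF 3), 0 to 2 in EtOH+MBV against EtOH, 0 to 3 in PF+MBV against PF, 11 to 15 in EtOH+MBV against PF+MBV and 0 to 2 for the interaction. Over all genes the ranges were 4268 to 5432, 8 to 1169 (without EtOH+MBV 3 and without EtOH 4), 45 to 690 (without PF 1 and without PF 2), 3412 to 5512 and 168 to 1088 (without PF 1 and without EtOH 4), in the same order. Coagulation medians ranged over -0.1528 to 0.0219, 0.0045 to 0.1956, -0.1095 to -0.0624, 0.0861 to 0.1513 and 0.165 to 0.2911, and complement medians over -0.5141 to -0.1914, 0.0276 to 0.2747, -0.2136 to -0.1371, -0.2253 to -0.0579 and 0.2305 to 0.3844.

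Libraries share replicate numbers across groups, but their deviations correlated by -0.09 to 0.16 within pairs, so a number is not shown to pair them. With the replicate block, 17 of the 39 (43.6%) were called in EtOH against PF, beside 37.9% of all tested genes, with Fga and Fgg no longer among them. C6 and C8b were called in the interaction, beside 3.98% of all tested genes. With at least 15271344 gene counts a library, every member averaged over 20 CPM in every group.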
